A study of Mus musculus with 18 samples.

Results

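The genes described are 10 collagen processing genes, P4ha1, P4ha2, P4ha3, Plod1, Plod2, Plod3, Serpinh1, Pcolce, Bmp1 and Adamts2. They were chosen by name, with earlier results of these data known. They were found by symbol among the 38355 gene identifiers of the count tables. All 10 passed the filter on low counts and were among the 14876 genes tested. Of the 10, 8 encode enzymes or their catalytic subunits, Serpinh1 encodes a chaperone and Pcolce encodes an enhancer of a protease.

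Collagen chains are modified inside the cell before they fold. Prolyl 4-hydroxylases add hydroxyl groups to prolines, which keeps the folded helix stable at body temperature, and lysyl hydroxylases modify lysines that later carry sugars and cross-links. The chaperone HSP47, the product of Serpinh1, holds the folded procollagen in the endoplasmic reticulum. After export, proteases cut the propeptides from both ends, and the remaining molecule joins a fibril. In the heart this work is done mainly by fibroblasts, and it is known to increase when the ventricle scars under pressure load.

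RNA came from left ventricles of (DBA/2J x C3HeB/FeJ)F1 mice in 4 groups: cycD2 Shunt (n = 5), cycD2 TAC (n = 3, replicates 1, 2 and 4), cycD2 sham (n = 5) and WT with no treatment (n = 5). The first 3 groups are labelled as carrying the MHC-cycD2 transgene. In it a myosin heavy chain promoter, active in heart muscle cells, drives the cell cycle protein cyclin D2. A Shunt, an opening made between aorta and vena cava, gives volume load, and TAC, a band around the aortic arch, gives pressure load. Mice were operated on at 8 weeks of age, and the age at tissue collection is not given in the labels. There was no WT group with either load, and WT mice had no sham operation. Which of the 2 procedures the sham mice mimicked is not stated either. Each library is labelled as a separate sample. Whether each is a separate animal is not stated, so the spread behind the p-values may be in part technical.

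The libraries held 19297821 to 30594075 gene counts. Levels are in CPM, gene counts scaled to the effective library size, and log2 fold changes come from edgeR's quasi-likelihood test with Benjamini-Hochberg adjustment over all 14876 genes. A gene was called at an adjusted p under 0.05, and errors of fold changes are standard errors. Ccnd2, which the transgene adds to, was at 14.1 to 14.9 log2 CPM in the cycD2 libraries except TAC replicate 2, which had 7.83, close to the 7.14 to 7.56 of WT. The Ccnd2 level of TAC replicate 2 thus does not show the transgene, and that library was kept under its label. The mean log2 CPM of 4 Y-linked genes was -3.58 to -3.08 in Shunt, -2.35, -2.21 and 5.20 in TAC replicates 1, 2 and 4, and 5.32 to 5.70 in sham and WT. The clock gene Arntl was above Dbp in all TAC libraries, sham replicates 1 and 2 and WT replicates 1 to 3, and below Dbp in all other libraries, Shunt included. Where the call of a member, partner or collagen gene named below rested on TAC replicate 2, the value without it follows. The sizes of other changes could also differ without it.

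The sequences before the start sites are shown for the 4 members that hold the letters ACGTG or CACGT within 250 bases before the RefSeq start. These letters are a form of the core of the hypoxia response element, on either strand. The form GCGTG was not searched and is not marked. Some genes for prolyl and lysyl hydroxylases, not all, are known as targets of hypoxia-inducible factors, which bind such cores. Among the lysyl hydroxylase genes Plod1 held no match. The sequences are from RefSeq on GRCm38.p6, each 5′ to 3′ on the strand of its gene, and the capitals mark the match. They lie at chr10:59323046-59323295 (P4ha1, plus strand), chr11:54100674-54100923 (P4ha2, plus strand), chr5:136986769-136987018 (Plod3, plus strand) and chr7:99353240-99353489 (Serpinh1, minus strand).
P4ha1: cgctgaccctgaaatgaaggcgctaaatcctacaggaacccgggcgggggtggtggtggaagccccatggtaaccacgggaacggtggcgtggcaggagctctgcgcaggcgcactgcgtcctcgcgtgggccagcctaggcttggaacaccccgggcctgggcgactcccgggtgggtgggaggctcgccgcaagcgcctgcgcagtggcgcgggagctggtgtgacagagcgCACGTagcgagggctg
P4ha2: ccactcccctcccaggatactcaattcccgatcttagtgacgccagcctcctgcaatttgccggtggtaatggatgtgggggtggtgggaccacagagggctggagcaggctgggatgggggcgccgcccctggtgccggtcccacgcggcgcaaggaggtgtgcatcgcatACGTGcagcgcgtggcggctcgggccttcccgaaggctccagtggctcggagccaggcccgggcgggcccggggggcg
Plod3: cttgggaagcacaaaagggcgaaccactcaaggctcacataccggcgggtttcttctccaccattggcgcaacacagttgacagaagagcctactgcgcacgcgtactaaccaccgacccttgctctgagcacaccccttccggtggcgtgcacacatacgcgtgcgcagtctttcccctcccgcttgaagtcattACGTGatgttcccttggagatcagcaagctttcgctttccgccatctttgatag
Serpinh1: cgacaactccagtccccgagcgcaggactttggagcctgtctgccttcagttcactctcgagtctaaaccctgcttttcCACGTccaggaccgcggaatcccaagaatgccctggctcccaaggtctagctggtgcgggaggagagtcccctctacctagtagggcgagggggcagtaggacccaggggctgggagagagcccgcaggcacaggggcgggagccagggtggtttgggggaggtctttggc
Counted from the RefSeq start, the match began at base -16 in P4ha1, -78 in P4ha2, -54 in Plod3 and -171 in Serpinh1. The RefSeq start used for P4ha2, and the sequence before it, lie inside the annotated gene, which begins at 54100095. Of the 10 members 8 have a promoter entry, and 4 of these 8 hold the match, against 16.6% of 32841 mouse promoters of the same length. The longer E-box CACGTG, which contains both ACGTG and CACGT and is bound by clock factors, was in 0 of 8 members and in 6.02% of the promoters. The heat shock core GAANNTTC was in 0 of 8 and in 6.7%. The GC box GGGCGG or CCGCCC was in 7 of 8 members, against 32.7% of promoters, and the CCAAT box CCAAT or ATTGG in 1 of 8, against 33.9%. A match is a description of these letters and not a measured binding site.

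Setting TAC against sham asks what pressure load does to these genes in ventricles labelled cycD2. In TAC 8 of the 10 members rose: P4ha1, P4ha2, Plod1, Plod3, Serpinh1, Pcolce, Bmp1 and Adamts2. In this comparison 16.4% of all genes tested were called higher and 30.9% were called in either direction. The changes ran from 1.28-fold for P4ha2 to 2.94-fold for P4ha1, and the median log2 fold change over the 10 members was 0.95, against 0.01 over all genes tested. The same 8 members were higher in every TAC library than in every sham library, which 14.5% of all genes were. P4ha3 and Plod2 were not called. Without TAC replicate 2, 7 of the 10 were called, and 3 were (P4ha1, Plod1 and Bmp1) once the mean of the Y-linked genes entered as a covariate. Of these groups TAC alone held both levels of the Y-linked genes, so most of that difference cannot be told apart from load.

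**Figure D1:**
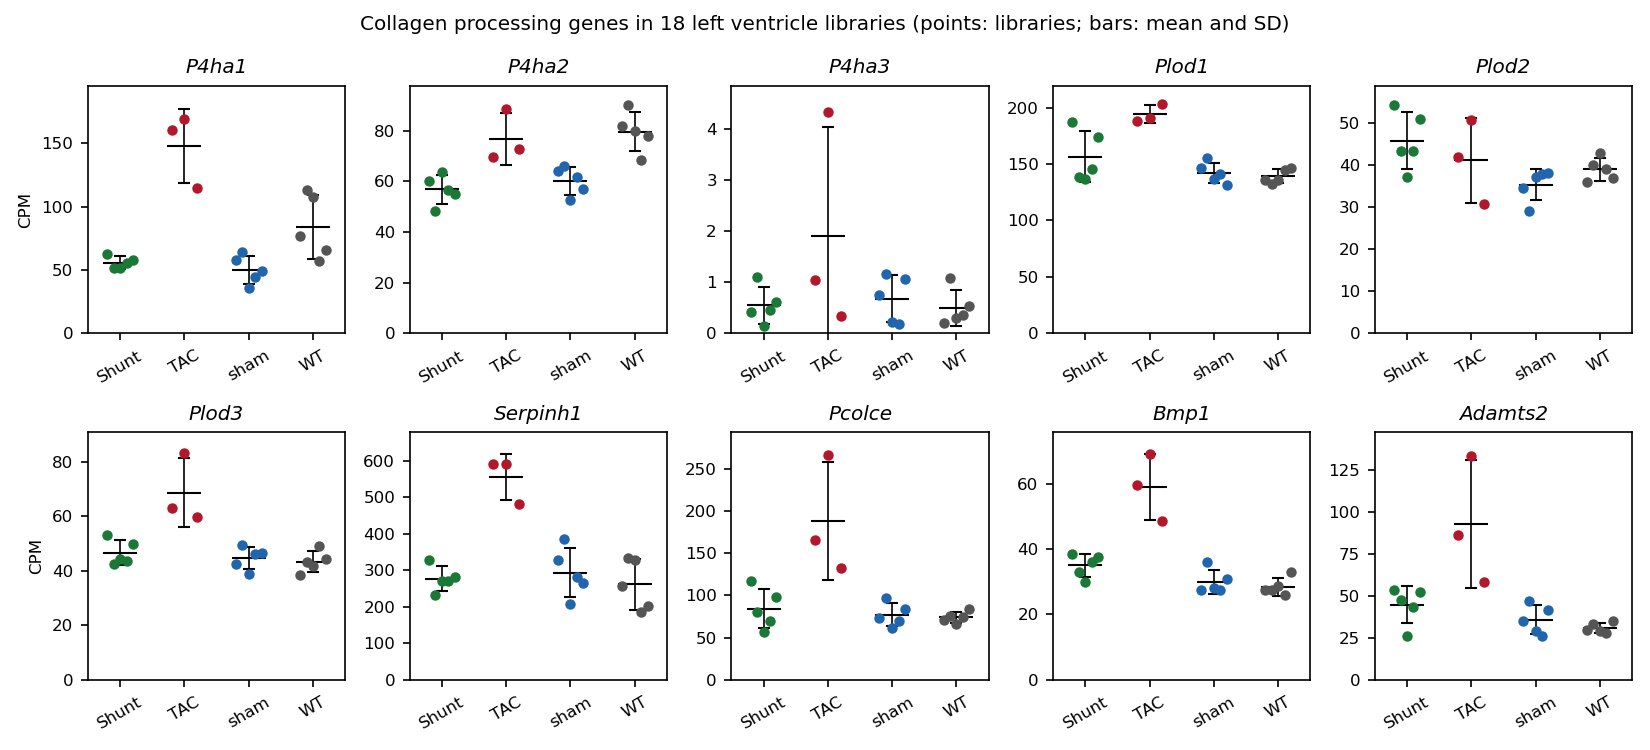
CPM of the 10 collagen processing genes (vertical axes, each from 0) in the Shunt, TAC, sham and WT groups. Points are libraries, and the lines give the mean and SD of each group. For 8 genes all 3 TAC points lie above all sham points, while P4ha3 and Plod2 overlap.

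P4ha1 (ENSMUSG00000019916, GRCm38 chromosome 10, 59323296 to 59373304) encodes the alpha subunit of the main prolyl 4-hydroxylase. It was at 63.0, 51.3, 51.8, 55.5 and 57.9 CPM in Shunt libraries and at 160.2, 169 and 115 CPM in TAC libraries. Sham libraries had 57.6, 64.3, 36.1, 44.5 and 49.1 CPM, and WT libraries had 76.8, 114, 108, 56.7 and 66.2 CPM. TAC stood above the other 3 groups without overlap, and Shunt and sham overlapped. P4ha1 rose by 1.56 ± 0.21 on the log2 scale in TAC against sham (adjusted p = 5.94e-05), the largest called change among the members. It was lower in Shunt than in TAC (log2 fold change -1.41, adjusted p = 2.04e-04).

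P4ha2 (ENSMUSG00000018906, chromosome 11, 54100095 to 54131665) encodes a second alpha subunit. Its CPM was 60.1, 48.4, 63.6, 56.4 and 55.1 in Shunt and 69.4, 88.6 and 72.5 in TAC. It was 63.9, 66.1, 52.4, 61.5 and 56.9 CPM in sham and 81.9, 89.96, 79.8, 68.4 and 77.6 CPM in WT. TAC and sham were apart by a narrow gap, and the highest TAC value was that of replicate 2. In TAC it rose by 0.35 ± 0.10 against sham (adjusted p = 0.0148). Without TAC replicate 2 the change was 0.22 and was not called (adjusted p = 0.162). Shunt was lower than TAC (log2 fold change -0.44, adjusted p = 0.00445), which without TAC replicate 2 was -0.32 and not called (adjusted p = 0.0510).

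P4ha3 (ENSMUSG00000051048, chromosome 7, 100285520 to 100319699), another alpha subunit gene, had only 4 to 110 counts per library. Its CPM was 0.423, 1.10, 0.134, 0.447 and 0.618 in Shunt and 1.04, 4.34 and 0.344 in TAC. In sham it was 0.741, 1.17, 0.230, 0.183 and 1.062 CPM, and in WT 0.199, 1.08, 0.295, 0.362 and 0.535 CPM. The single high value was that of TAC replicate 2, and the groups overlapped. The log2 difference of TAC against sham was 1.47 ± 0.69 (adjusted p = 0.116), and 0.01 without that library.

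Among the alpha subunits P4ha1 took a larger share in TAC. Per length, P4ha1 held 73.4 ± 3.497% of the summed RPKM (CPM per kilobase of exon) of the 3 subunit genes in TAC, against 55.0 ± 3.33% in sham (SD, n = 3 and n = 5). The TAC libraries ran from 70.4% to 77.3% and the sham libraries from 50.9% to 58.8%, so they did not overlap. Shunt had 59.5 ± 2.48% and WT 60.5 ± 5.30% (SD, n = 5 each). P4ha2 held 25.5 ± 3.63% in TAC, against 44.1 ± 3.82% in sham, and P4ha3 at most 2.44% in any library. These shares are a description, with no test. The partner subunit P4hb, protein disulfide isomerase, rose by 0.30 ± 0.09 in TAC (adjusted p = 0.0141), a call lost without TAC replicate 2 (0.13, adjusted p = 0.247). The ratio of P4ha1 to P4hb CPM was 0.423 ± 0.053 in TAC, against 0.177 ± 0.042 in sham (SD). In WT it was 0.315 ± 0.113, and the WT libraries, 0.194 to 0.444, overlapped those of TAC, 0.384 to 0.483.

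Plod1 (ENSMUSG00000019055, chromosome 4, 147909753 to 147936767) encodes the lysyl hydroxylase that modifies lysines in the helical part of collagen. It was at 187, 138, 137, 146 and 174 CPM in Shunt and at 188, 191 and 203 CPM in TAC. Sham libraries had 146, 155, 137, 141 and 131 CPM, and WT libraries had 136, 133, 136, 145 and 147 CPM. The 3 TAC libraries were close together, and Shunt replicate 1 came close below the lowest of them. Plod1 rose by 0.45 ± 0.09 in TAC against sham (adjusted p = 0.00116), or 1.37-fold. It was lower in Shunt than in TAC (log2 fold change -0.31, adjusted p = 0.0164), which was at an adjusted p = 0.0571 without TAC replicate 4.

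Plod2 (ENSMUSG00000032374, chromosome 9, 92542223 to 92608428) encodes the enzyme for lysines of the telopeptides, the ends from which cross-links form. Its CPM was 54.3, 43.3, 37.3, 43.3 and 51.0 in Shunt and 42.0, 50.8 and 30.7 in TAC. It was 34.6, 29.2, 37.2, 37.9 and 38.2 CPM in sham and 36.0, 39.95, 42.9, 39.0 and 37.0 CPM in WT. TAC replicates 1 and 2 lay above all sham values and replicate 4 lay among them. The log2 difference of TAC against sham was 0.22 ± 0.14 (adjusted p = 0.239), with a 95% interval from -0.07 to 0.51. It moved with the TAC library left out: 0.02 without replicate 2 (adjusted p = 0.929), and 0.39 without replicate 4, where it was called (adjusted p = 0.0273).

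Plod3 (ENSMUSG00000004846, chromosome 5, 136987019 to 136996648), whose enzyme also adds sugars to the hydroxylated lysines, was at 53.1, 42.4, 44.5, 43.5 and 49.7 CPM in Shunt and at 63.0, 83.4 and 59.9 CPM in TAC. Sham libraries had 42.4, 49.3, 38.8, 46.1 and 46.7 CPM, and WT libraries had 38.5, 43.4, 41.8, 49.1 and 44.2 CPM. TAC stood above every other library. Plod3 rose by 0.62 ± 0.11 in TAC against sham (adjusted p = 3.58e-04) and was lower in Shunt than in TAC (log2 fold change -0.56, adjusted p = 0.00113). Without TAC replicate 2 these changes were 0.44 (adjusted p = 0.00532) and -0.39 (adjusted p = 0.0140). Of its exon bases 11.9% are shared with other genes, mainly Znhit1 on the other strand, and the library kit does not mark strand, so reads there cannot be told apart. The shared part was 6.42% in Plod2, 2.93% in Pcolce and 0% in the other 7 members.

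Within the lysyl hydroxylases Plod1 kept a like share of the summed RPKM in all groups: 55.1 ± 0.776% in Shunt, 55.9 ± 5.49% in TAC, 56.1 ± 2.32% in sham and 55.0 ± 1.60% in WT (SD). Plod2 held 20.3 ± 0.942% in Shunt, 14.7 ± 2.72% in TAC, 17.6 ± 2.29% in sham and 19.3 ± 1.42% in WT. Plod3 held 29.4 ± 3.10% in TAC, against 26.3 ± 1.76% in sham. The shares of Plod2 in Shunt, 18.7% to 21.2%, lay above those in TAC, 11.6% to 16.8%. The differences in Plod1 share were smaller than its spread within TAC.

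**Figure D2:**
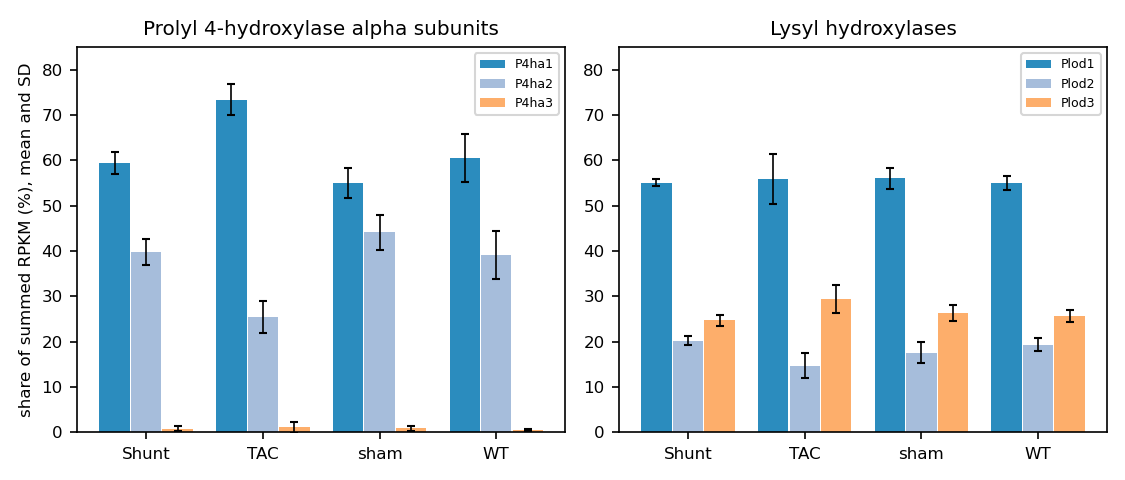
Share (percent, vertical axis) of each gene in the summed RPKM of the 3 prolyl 4-hydroxylase alpha subunit genes (left) and the 3 lysyl hydroxylase genes (right), by group. Bars are means and lines are SDs over libraries. The P4ha1 bar is highest in TAC at 73.4%, and the Plod1 bars lie between 55.0% and 56.1%.

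Serpinh1 (ENSMUSG00000070436, chromosome 7, 99345376 to 99353239), the gene of the collagen chaperone HSP47, was the most abundant member per length in all 4 groups, at 227 ± 25.6 RPKM in TAC against 120.1 ± 27.6 RPKM in sham (SD). Its CPM was 327, 232, 271, 271 and 283 in Shunt and 590.4, 591 and 483 in TAC. It was 327, 386, 207, 282 and 265 CPM in sham and 257, 335, 329, 185 and 201 CPM in WT. Every TAC library lay above every other library, and Shunt, sham and WT overlapped. Serpinh1 rose by 0.92 ± 0.20 in TAC against sham (adjusted p = 0.00199), or 1.89-fold. With Arntl minus Dbp as a covariate and TAC replicate 2 left out, the change was 0.54 and not called (adjusted p = 0.0768). It was lower in Shunt than in TAC (log2 fold change -1.003, adjusted p = 0.00134), and with Arntl minus Dbp as a covariate that difference was -0.55 and not called (adjusted p = 0.0660).

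Bmp1 (ENSMUSG00000022098, chromosome 14, 70474558 to 70520234) encodes the protease that removes the C-terminal propeptide. It was at 38.6, 33.0, 30.04, 35.9 and 37.6 CPM in Shunt and at 59.6, 68.9 and 48.7 CPM in TAC. Sham libraries had 27.6, 36.0, 28.1, 27.3 and 30.7 CPM, and WT libraries had 27.5, 27.6, 28.6, 25.8 and 33.1 CPM. TAC was apart from all other libraries. Bmp1 rose by 0.98 ± 0.11 in TAC against sham (adjusted p = 1.59e-05), the smallest p among the members. Under every alternative run, P4ha1 and Bmp1 were called in TAC against sham. It was lower in Shunt than in TAC (log2 fold change -0.75, adjusted p = 1.92e-04).

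Pcolce (ENSMUSG00000029718, chromosome 5, 137605103 to 137613784) encodes the enhancer that speeds this cleavage. Its CPM was 117, 80.5, 57.1, 69.7 and 98.0 in Shunt and 166, 266 and 132 in TAC. It was 73.8, 96.4, 61.4, 69.3 and 83.8 CPM in sham and 71.0, 75.3, 65.8, 74.2 and 83.8 CPM in WT. TAC replicate 2 was far above the other TAC libraries, and the lowest TAC library was still above all of Shunt and sham. Pcolce rose by 1.29 ± 0.22 in TAC against sham (adjusted p = 3.44e-04), and by 0.94 without TAC replicate 2 (adjusted p = 0.00391). It was lower in Shunt than in TAC (log2 fold change -1.16, adjusted p = 0.00107).

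Adamts2 (ENSMUSG00000036545, chromosome 11, 50602084 to 50807573) encodes the protease that removes the N-terminal propeptide. It was at 53.7, 47.5, 26.3, 43.3 and 52.3 CPM in Shunt and at 86.5, 134 and 58.5 CPM in TAC. Sham libraries had 35.1, 47.0, 29.0, 25.9 and 41.5 CPM, and WT libraries had 29.9, 33.2, 28.9, 27.9 and 35.1 CPM. The TAC libraries were widely spread, with replicate 2 highest and replicate 4 lowest. Adamts2 rose by 1.38 ± 0.24 in TAC against sham (adjusted p = 5.31e-04), and by 1.01 without TAC replicate 2 (adjusted p = 0.00650). It was lower in Shunt than in TAC (log2 fold change -1.058, adjusted p = 0.00445), a call lost without TAC replicate 2 (-0.70, adjusted p = 0.0522).

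The comparison of cycD2 Shunt with cycD2 sham asks what volume load does. In Shunt 0 of the 10 members were called by edgeR's quasi-likelihood test, and in all 10 the Shunt and sham libraries overlapped. Over all genes 0.242% were called and 4.09% did not overlap. DESeq2 and limma-voom also called 0 members, and 2 members, Plod2 and Bmp1, had an unadjusted p under 0.05. Plod2 differed by 0.37 ± 0.12 (adjusted p = 0.197), with a 95% interval from 0.12 to 0.62, and Bmp1 by 0.22 ± 0.10 (adjusted p = 0.316), from 0.01 to 0.44. All Shunt libraries had Dbp above Arntl. The lowest Plod2 levels of sham, 34.6 and 29.2 CPM, were those of the 2 sham libraries with Arntl above Dbp. For P4ha1 the interval ran from -0.24 to 0.54, for Serpinh1 from -0.45 to 0.28 and for P4ha3 from -1.78 to 1.08. The median log2 fold change of the 10 members was 0.14, against 0.00 over all genes tested. The Y-linked genes separated all Shunt from all sham libraries, so volume load and that difference cannot be told apart here.

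The direct comparison of cycD2 Shunt with cycD2 TAC asks how the 2 loads differ. In Shunt 8 of the 10 members were lower than in TAC, against 13.6% of all genes called lower and 27% called in either direction. The median over the members was -0.88, against -0.01 over all genes tested. In 8 members every Shunt library lay below every TAC library, which 12.5% of all genes did. Plod2 was at 0.15 (adjusted p = 0.440, 95% interval -0.14 to 0.44), and P4ha3 at -1.83 ± 0.69 was not called (adjusted p = 0.0606). Leaving out TAC replicate 2 put Plod2 at 0.34 (adjusted p = 0.111) and P4ha3 at -0.37 (adjusted p = 0.774). The Shunt and TAC libraries also differed without overlap in Arntl minus Dbp, so load and clock phase cannot be told apart. With that difference as a covariate 4 members were called, P4ha1, Plod3, Pcolce and Bmp1. The comparisons of TAC and of Shunt with sham share the 5 sham libraries.

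**Figure D3:**
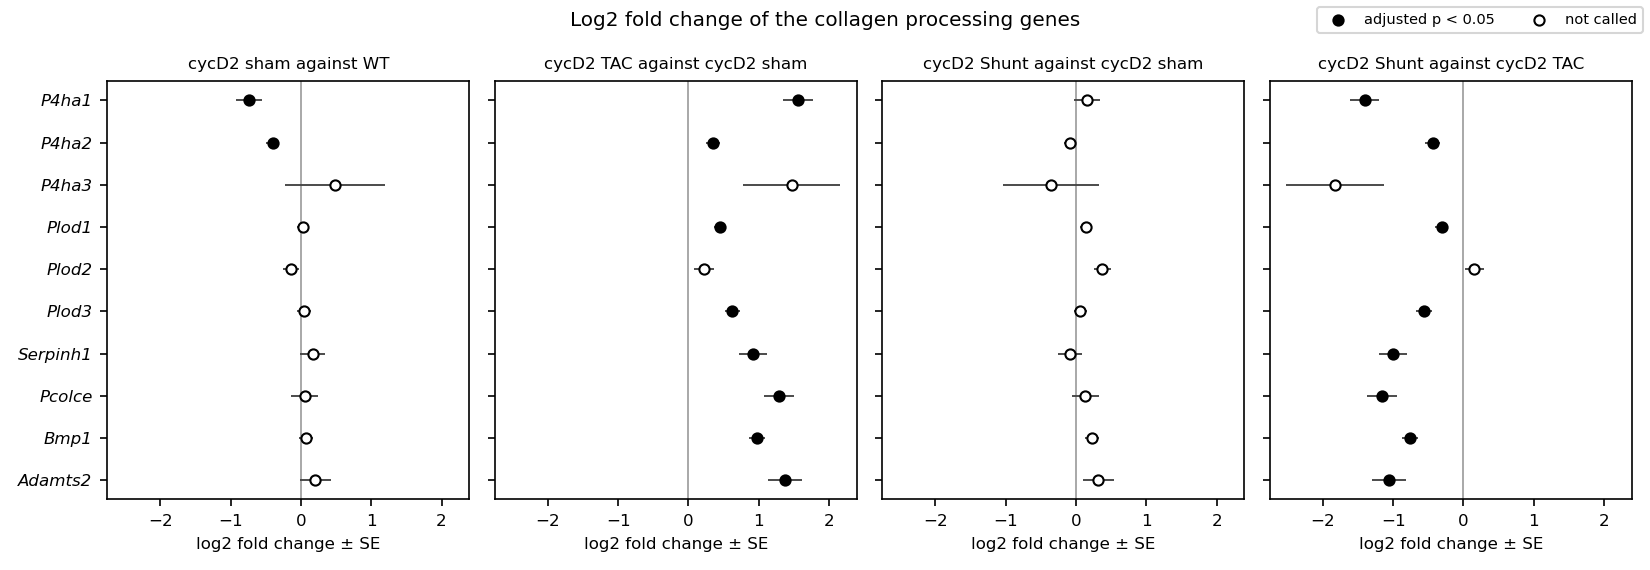
Log2 fold change with its standard error (horizontal axis) of the 10 members in the 4 comparisons, filled where the adjusted p is under 0.05. In TAC against sham 8 points are filled and lie right of 0, and in Shunt against sham 0 are filled.

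The comparison of cycD2 sham with WT joins the transgene with the sham operation. In sham the alpha subunits P4ha1 and P4ha2 fell, and the other 8 members were not called. Over all genes 14.9% were called lower and 28.4% in either direction, so 2 of 10 is close to the background. P4ha1 averaged 50.3 ± 10.99 CPM in sham and 84.2 ± 25.2 CPM in WT (SD, n = 5 each), a log2 fold change of -0.74 ± 0.19 (adjusted p = 0.00683). P4ha2 averaged 60.2 ± 5.51 CPM in sham and 79.5 ± 7.79 CPM in WT, a log2 fold change of -0.40 ± 0.09 (adjusted p = 0.00295). Of the 10 members, P4ha2 alone was lower in every sham library than in every WT library, which 11.7% of all genes were. Among libraries with Arntl above Dbp (2 sham, 3 WT) the differences were -0.69 for P4ha1 (adjusted p = 0.0686) and -0.36 for P4ha2 (adjusted p = 0.0909).

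Other genes of the collagen pathway moved in TAC in both directions. Of 21 listed partners 9 rose and 4 fell in TAC against sham. Over all genes tested 16.4% were called higher and 30.9% in either direction. Among the collagen prolyl 3-hydroxylases P3h2 rose by 2.00 ± 0.31 (adjusted p = 1.83e-04), P3h3 by 1.13 ± 0.19 (2.50e-04) and P3h1 by 0.46 ± 0.11 (0.00347). The call of P3h1 was lost without TAC replicate 2 (0.23, adjusted p = 0.0607), and those of P3h2 (2.18, adjusted p = 3.73e-04) and P3h3 (0.81, adjusted p = 0.00254) remained. P3h2 was at 37.9, 18.9 and 21.5 CPM in TAC and at 5.36, 9.01, 5.79, 3.93 and 8.32 CPM in sham. Ppib, the cyclophilin that works with P3h1 on folding procollagen, rose by 0.50 ± 0.10 (7.38e-04). Crtap, another protein of that complex, was called at 0.23 ± 0.08 (adjusted p = 0.0446), and its call was lost in many settings, among them the replicate block (0.21, adjusted p = 0.104) and the one without TAC replicate 2 (0.12, adjusted p = 0.365). Without TAC replicate 2, 4 partners rose and 4 fell, and among libraries with Arntl above Dbp 2 rose and 2 fell, with P3h1 and P3h3 not called there. With the Y-linked covariate 1 rose, P3h2, and 1 fell, P3h4.

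P3h4 and Adamts3 fell in TAC. P3h4, which encodes a protein related to the prolyl 3-hydroxylases that works with lysyl hydroxylase 1, was at 21.96, 27.1 and 26.5 CPM in TAC and at 48.5, 45.8, 44.3, 46.0 and 45.1 CPM in sham. It fell by 0.87 ± 0.08 in TAC against sham (adjusted p = 3.69e-06), the smallest p among the partners. In sham against WT P3h4 rose by 0.70 ± 0.07 (adjusted p = 2.49e-06), with 45.9 ± 1.56 CPM in sham and 28.3 ± 2.23 CPM in WT (SD, n = 5 each). Adamts3, a relative of Adamts2 that also cleaves procollagen in biochemical assays, was at 4.63, 4.42 and 7.21 CPM in TAC and at 11.7, 12.0, 18.9, 15.0 and 19.9 CPM in sham. It fell by 1.52 ± 0.21 in TAC (adjusted p = 6.05e-05), while Adamts2 rose and Adamts14, another relative, was not called (-0.29 ± 0.23, adjusted p = 0.367). In sham against WT Adamts3 rose by 1.11 ± 0.17 (adjusted p = 1.79e-04), with 15.5 ± 3.795 CPM in sham and 7.20 ± 1.07 CPM in WT. Among libraries with Arntl above Dbp that difference was 0.66 and was not called (adjusted p = 0.0950). Both genes were low in all 3 TAC libraries, not only in replicate 2. In Shunt they averaged 40.9 ± 2.35 CPM and 14.5 ± 2.18 CPM (SD, n = 5).

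The fibrillar collagens, the substrates of these proteins, rose too. Of 9 fibrillar collagen chain genes 8 were tested and 7 rose in TAC against sham, with a median log2 fold change of 1.96, against 0.95 over the 10 members and 0.01 over all genes, a difference that was not tested. Over all genes tested 16.4% were called higher in TAC against sham. In Shunt against sham 0 of the collagen genes were called, against 0.242% of all genes. Col1a1 was at 900.2, 1344 and 533 CPM in TAC and at 184, 298, 119, 118 and 217 CPM in sham. It rose by 2.31 ± 0.33 (adjusted p = 1.17e-04), Col3a1 by 2.14 ± 0.34 (2.55e-04), Col5a2 by 1.96 ± 0.32 (3.46e-04), Col1a2 by 1.96 ± 0.27 (8.14e-05) and Col5a1 by 1.504 ± 0.20 (5.42e-05). Col11a1 was called at 2.59 ± 0.81 (0.0227), lost without TAC replicate 2 (2.17, adjusted p = 0.105). Without TAC replicate 2, 5 collagen genes were called: Col1a1 (1.92), Col3a1 (1.72), Col5a2 (1.54), Col1a2 (1.58) and Col5a1 (1.22). With the Y-linked covariate 1 was called. CPM ratios, which are not per length and serve only to set groups side by side, were higher in TAC. Col1a1 per Serpinh1 was 1.63 ± 0.591 in TAC and 0.629 ± 0.164 in sham (SD), and Col1a1 per Adamts2 was 9.86 ± 0.671 in TAC and 5.09 ± 0.850 in sham. Neither ratio overlapped between these groups, and neither was tested.

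**Figure D4:**
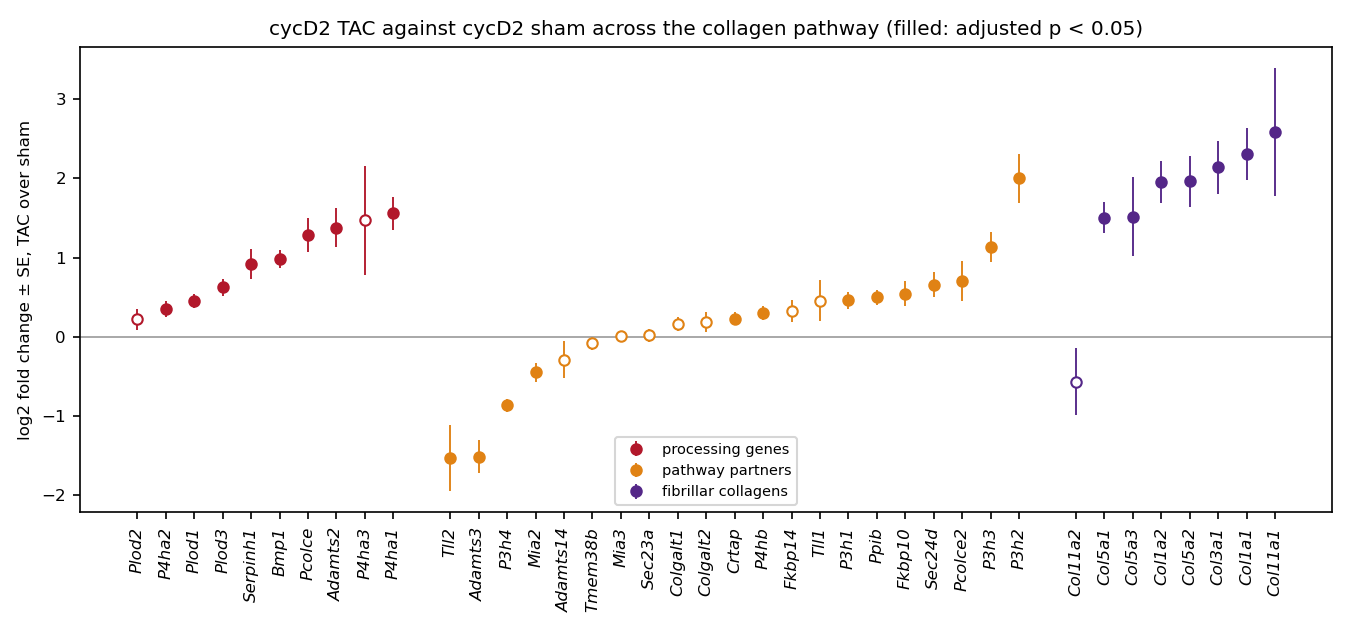
Log2 fold change of cycD2 TAC against cycD2 sham with its standard error (vertical axis) for the 10 processing genes, 21 partners and the 8 collagen genes tested, sorted within each list. Filled points passed an adjusted p of 0.05. Adamts3 and Tll2 lie lowest, below -1.5, and 7 collagen genes lie at 1.504 or above.

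In bulk tissue more cells of a type and more RNA per cell cannot be told apart. Of 8 fibroblast markers 6 rose in TAC against sham, and their summed level was 2742 to 5587 CPM in TAC and 2085 to 3304 CPM in sham. Of 6 markers of activated fibroblasts 4 rose, with 931 to 1708 CPM in TAC and 350.2 to 1030 CPM in sham. Of 6 macrophage markers 0 were called (182 to 291 CPM in TAC, 169 to 233 CPM in sham), of 6 endothelial markers 4 rose, and of 9 smooth muscle and pericyte markers 4 rose and 1 fell. Of 8 heart muscle markers 2 rose and 4 fell. Over all genes tested 16.4% were called higher in TAC against sham and 30.9% in either direction. Of 7 chondrocyte and osteoblast markers 3 were tested and 2, Sox9 and Acan, rose, while Chad was at -1.07 and not called. Col2a1, Bglap, Sp7 and Ibsp were at 0.269 CPM or below in every library. Of 6 atrial markers 5 were tested and 1 fell, and of 5 mesothelial markers 1 rose. The summed atrial level varied widely between libraries of a group, at 65.3 to 404 CPM in TAC and 99.45 to 803 CPM in sham. It was 78.7 to 535 CPM in Shunt and 35.8 to 65.3 CPM in WT. Without TAC replicate 2, 3 of the 8 fibroblast markers were called. The part of these cell types in the members' changes was not tested. Relative to Pdgfra, a fibroblast receptor, P4ha1 was at 1.94 ± 0.268 in TAC and 0.984 ± 0.196 in sham, and Adamts2 at 1.17 ± 0.200 in TAC and 0.689 ± 0.102 in sham (CPM ratios, SD), without overlap. Pcolce per Pdgfra did not overlap either, at 2.38 ± 0.273 in TAC and 1.51 ± 0.254 in sham. Bmp1 per Pdgfra overlapped, at 0.772 ± 0.0692 in TAC and 0.588 ± 0.0807 in sham. Serpinh1 per Pdgfra overlapped too, at 7.34 ± 1.21 in TAC and 5.77 ± 1.39 in sham. Between TAC and WT, P4ha1 per Pdgfra overlapped, at 1.38 ± 0.445 in WT, and the ratios of Adamts2, Pcolce, Bmp1 and Serpinh1 did not. Across the 8 fibroblast markers the log2 fold changes of TAC against sham ran from 0.37 to 2.28, with a median of 0.62. A ratio thus depends on the marker, and these hold for Pdgfra alone.

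Within the unloaded groups 3 of the 10 members differed with the clock genes. P4ha1, P4ha2 and Serpinh1 were higher in every library with Arntl above Dbp than in every library with Dbp above Arntl, in sham and in WT alike, which 8.56% of all genes were. Serpinh1 was at 327 and 386 CPM in the 2 sham libraries with Arntl above Dbp and at 207, 282 and 265 CPM in the other 3. In WT it was at 257, 335 and 329 CPM with Arntl above Dbp and at 185 and 201 CPM with Dbp above Arntl. The log2 difference between the phases was 0.51 in sham and 0.67 in WT for Serpinh1, 0.49 and 0.69 for P4ha1, and 0.19 and 0.20 for P4ha2. The other 7 members were not higher in both groups. Plod1 was higher in sham and lower in WT, Plod2 was lower in sham and overlapped in WT, and Plod3 overlapped in sham and was lower in WT. The labels give no time of collection, and these splits were not tested. Among libraries with Arntl above Dbp, 6 members were called in TAC against sham. P4ha1 was then at 1.28 (adjusted p = 0.0103), and the calls of P4ha2 (0.24, adjusted p = 0.219) and Adamts2 (1.18, adjusted p = 0.0571) were lost.

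**Figure D5:**
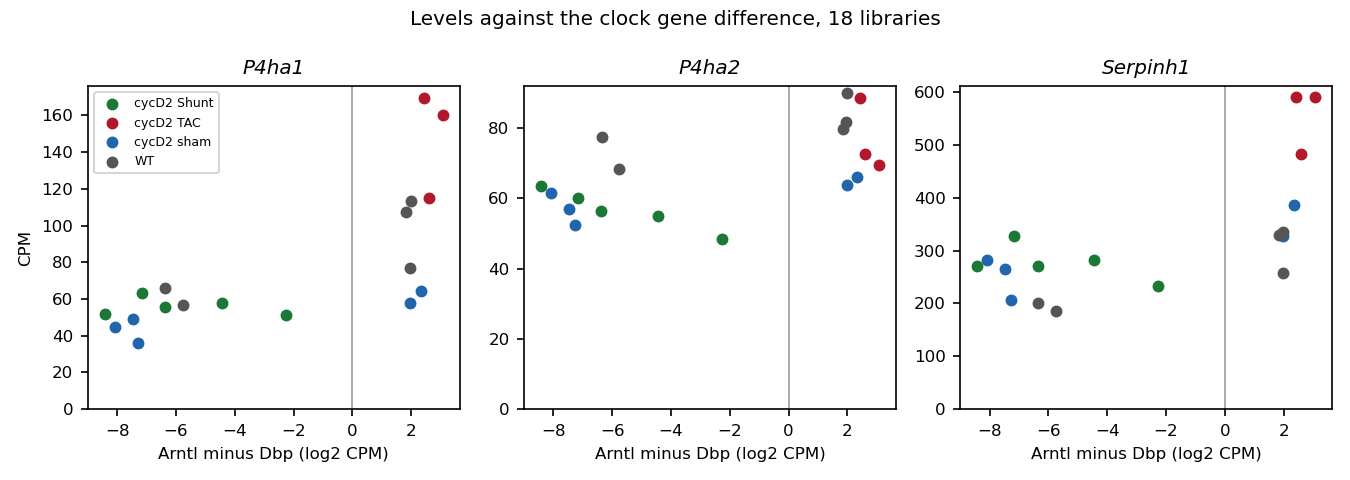
CPM of P4ha1, P4ha2 and Serpinh1 (vertical axes) against Arntl minus Dbp in log2 CPM (horizontal axes) in the 18 libraries, coloured by group. Right of the line, where Arntl is above Dbp, lie 3 TAC, 2 sham and 3 WT libraries, and the sham and WT points there are higher than those of the same group on the left.

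Per length, the order of the members was alike across groups. In TAC Serpinh1 came first, then Pcolce at 49.2 ± 18.2 RPKM, P4ha1 at 36.0 ± 7.07, Plod1 at 28.7 ± 1.18, Plod3 at 15.2 ± 2.83, P4ha2 at 12.3 ± 1.65, Adamts2 at 9.95 ± 4.06, Plod2 at 7.64 ± 1.87, Bmp1 at 6.66 ± 1.14 and P4ha3 at 0.608 ± 0.681 RPKM (SD, n = 3). Neighbours in this order overlapped in their libraries, except Serpinh1 and Pcolce, Plod1 and Plod3, and Bmp1 and P4ha3. In sham Plod1 at 21.01 ± 1.33 RPKM and Pcolce at 20.1 ± 3.54 RPKM followed Serpinh1 and overlapped, and P4ha1 at 12.2 ± 2.67 RPKM came next, without overlap. In WT Plod1 at 20.6 ± 0.905 RPKM, P4ha1 at 20.5 ± 6.13 RPKM and Pcolce at 19.4 ± 1.72 RPKM overlapped in the places after Serpinh1.

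The genes whose pattern over the 18 libraries was nearest to a member were found by the root mean square of the difference between centred log2 CPM values. For Adamts2 they were Adcy7 (0.137), the collagen gene Col5a1 (0.140) and Ssc5d (0.146), where Adamts2 itself varied by 0.611. Pcolce was nearest to Rcn3 (0.126), Dap and Fxyd5, and Bmp1 to Gpr153 (0.110), the matrix gene Fbln2 (0.125) and Tgif1. Plod3 was nearest to Dpysl2 (0.0868), Selenom and Ppib (0.105). Serpinh1 was nearest to the heat shock protein gene Hsp90aa1 (0.179), Pmepa1 and Inpp5j. P4ha1 was nearest to Mllt11 (0.248), Egfr and Kdelr3. Plod1 was nearest to Prelid1 (0.0887), Arpc4 and Acot9, and Plod2 to Helz2 (0.113), Bzw1 and Acap2. P4ha3, with few counts, was nearest to Prg4 at a distance of 0.510, Sox9 and Myoc. The distances are descriptions over libraries that share the group differences and have no test.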

How the data were processed

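RNA of mouse left ventricles was sequenced in 18 libraries. Per the labels' protocols, the RNeasy Fibrous Tissue Mini Kit and the TruSeq RNA v2 library kit were used. The authors deposited a table of raw read counts per Ensembl gene for each library. The submitters' processing notes name HTSeq 0.6.1p1, STAR 2.3.0e, SAMtools 0.1.19, FastQC, CASAVA 1.8.2 and DESeq2 1.8, and the builds GRCm38 and mm10. The annotation release and strand setting are not given in the sources used here. Symbols, positions and exon lengths came from GENCODE M21, which matched 36602 of 38355 identifiers. Reads with no feature, 13.6% to 22.8% of reads with a gene, no feature or ambiguous, were left out, and that share did not overlap between TAC and sham.

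From the deposited counts, genes were kept with filterByExpr (minimum count 10, by group) and scaled by TMM factors. All 18 libraries entered 1 model of group means in edgeR 4.0.16 under R 4.3.3 (quasi-likelihood F test, robust). Standard errors were derived from the log2 fold change and F. RPKM used the union of a gene's exons. The method was tested on simulated data. Alternatives were other scalings, filters, DESeq2 1.42.0, limma-voom (limma 3.58.1), covariates, subsets and each library left out. Any pair of libraries in a group differed beyond counting error (chi-square per gene at least 7.08).

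Same-numbered TAC and sham libraries had residuals correlated at 0.129, 0.151 and 0.157 across genes. These values pass the limit of 0.1 set for pairing. Differently numbered TAC and sham libraries ran from -0.171 to 0.27, so some of them pass it too. The values thus do not show that the numbers pair the libraries. With the number as a block 8 members were called. The numbers come from the titles, which do not say what they share.

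The members and gene lists were chosen with earlier results of these data known. Named genes are the 10 members, up to 6 partners and 6 collagen genes by smallest p among those called in TAC or Shunt against sham, P4hb, Crtap, P3h1, Col1a1, Col1a2 and Col3a1, and the 3 genes nearest to each member, which for P4ha2 are not reported here. Tll2, Adamts14, the markers and Pdgfra were named outside that rule, with their values known.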

Additional observations from a re-analysis of the deposited data

How the results depend on the processing

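No member changed direction with a call under any alternative run. In TAC against sham the 8 members called became 3 with the Y-linked covariate and 4 when tested against a 1.5-fold change, and leaving out 1 library gave 7 to 10. Without TAC replicate 2 and with the clock covariate 6 were called, with P4ha2 and Serpinh1 lost. In Shunt against TAC the 8 became 4 with the clock covariate, 3 with that covariate and without TAC replicate 2, and 1 against 1.5-fold, and leaving out 1 library gave 6 to 9. In sham against WT the 2 became 0 among libraries with Arntl above Dbp, 1 among those with Dbp above Arntl and 0 against 1.5-fold, and leaving out 1 library gave 2 to 2. Shunt against sham stayed at 0 in all settings. The subsets hold fewer libraries, and the other causes were not tested.

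With the replicate number as a block, 2 members were called in sham against WT, 8 in TAC against sham, 0 in Shunt against sham and 9 in Shunt against TAC, where P4ha3 was added (-1.39, adjusted p = 0.0197), against -0.37 (adjusted p = 0.774) without TAC replicate 2 and without the block. The block ended the call of Crtap in TAC against sham and of no member there. No libraries of TAC and Shunt share a clock phase, so that subset could not be fitted for them.

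P4ha3, at 4 to 110 counts per library, is the member that depth limits most.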
